A study of Homo sapiens with 42 samples.

Results

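The sites described here are stretches of accessible chromatin that were listed in MCF10A cells at 0 h and in almost no library taken later. Peaks of 42 ATAC-seq libraries on chromosomes 1 to 22 and X were merged where they overlapped by at least 1 bp, which gave 167085 sites. A site was kept where at least 3 of the 4 CTRL libraries and at most 2 of the other 38 libraries had a peak, and 1622 sites met this rule, which is 0.971% of all merged sites. ATAC-seq cuts and tags DNA that a transposase can reach, and a peak is a place where more tagged fragments pile up than around it. MCF10A cells are a long-established human breast epithelial line that does not form tumours.

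Cells had been grown with EGF and insulin and were then kept in experimental medium, which held horse serum, hydrocortisone and cholera toxin but no EGF or insulin, before any ligand was added. CTRL cells (4 libraries, labelled PBS, 0 ng/ml) were taken at this point, 0 h. The other cells got fresh experimental medium for 24 h or 48 h with PBS (n = 3 per time), EGF at 10 ng/ml (n = 4 per time), HGF at 40 ng/ml, OSM at 10 ng/ml, IFNG + EGF at a labelled 20 ng/ml or TGFB + EGF at a labelled 10 ng/ml (n = 3 per time for each of these). BMP2-treated libraries were not analysed here. In CTRL, promoters of the basal markers KRT5, KRT17, ITGA6 and LAMB3 had a peak in 4 of 4 libraries. The basal marker KRT14 had one in 3 and the basal marker TP63 in 0. The epithelial markers CDH1 and EPCAM had one in 4. Of the fibroblast or mesenchyme markers, COL1A1 and PDGFRB had one in 0 and COL1A2 in 2. The immune markers PTPRC and CD3E had one in 0.

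Open chromatin away from promoters marks enhancers and other regulatory elements, and these differ between cell states more than promoters do. In epithelial cells many of them carry the AP-1 motif, TGAGTCA, which FOS and JUN dimers bind and which growth factor signalling and cell stress act on. Bulk ATAC-seq cannot tell apart a site that is open in fewer cells and one that is less open in each cell.

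The sites were chosen by whether a peak was listed in CTRL and in the other libraries, so every value that sets CTRL against the others at these sites is a description and was not tested. Only 17 of the 1622 sites had a peak in 4 of 4 CTRL libraries and in 0 of the 38 others, and the 6 of these with the highest mean fold enrichment are shown as the clearest cases. Each sequence is 201 bases of the plus strand of hg38 around the centre summit, which is the summit of the strongest peak of the merged site, and capitals mark the AP-1 motif on either strand. The windows are chr9:4228687-4228887 for GLIS3, chr3:134686483-134686683 for KY, chr20:46438243-46438443 for ELMO2, chr22:29329038-29329238 for RASL10A, chr2:197174610-197174810 for ANKRD44 and chr9:10678933-10679133 for PTPRD, named by the protein-coding gene with the nearest transcription start.
GLIS3 site: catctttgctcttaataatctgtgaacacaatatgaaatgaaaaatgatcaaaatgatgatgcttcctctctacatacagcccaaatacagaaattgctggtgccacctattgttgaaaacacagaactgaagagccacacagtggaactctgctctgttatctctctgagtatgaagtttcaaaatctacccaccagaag
KY site: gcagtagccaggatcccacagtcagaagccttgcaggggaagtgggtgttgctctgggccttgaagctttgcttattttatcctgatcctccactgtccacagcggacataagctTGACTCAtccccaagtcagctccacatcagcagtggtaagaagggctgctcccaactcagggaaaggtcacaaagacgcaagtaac
ELMO2 site: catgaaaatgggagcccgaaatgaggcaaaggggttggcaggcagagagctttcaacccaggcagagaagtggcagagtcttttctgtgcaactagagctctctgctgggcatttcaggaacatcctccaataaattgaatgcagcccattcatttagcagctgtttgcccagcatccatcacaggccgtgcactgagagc
RASL10A site: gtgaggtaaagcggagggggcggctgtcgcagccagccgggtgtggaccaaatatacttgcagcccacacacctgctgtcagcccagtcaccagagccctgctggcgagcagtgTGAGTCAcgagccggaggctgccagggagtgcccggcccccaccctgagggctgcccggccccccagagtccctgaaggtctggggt
ANKRD44 site: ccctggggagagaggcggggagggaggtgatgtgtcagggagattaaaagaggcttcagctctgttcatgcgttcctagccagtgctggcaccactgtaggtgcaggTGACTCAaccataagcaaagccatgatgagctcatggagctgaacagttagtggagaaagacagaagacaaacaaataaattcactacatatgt
PTPRD site: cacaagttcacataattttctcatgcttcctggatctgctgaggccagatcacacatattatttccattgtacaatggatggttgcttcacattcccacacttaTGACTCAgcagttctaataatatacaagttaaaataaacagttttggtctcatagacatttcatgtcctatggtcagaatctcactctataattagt
The motif was found in 4 of these 6 windows and in 5 of the 17, against 27.2% of the windows of all merged sites. The GLIS3 and ELMO2 windows held no AP-1 match.

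Fold enrichment is the fragment pileup at a summit plus 1, over the local background plus 1, as the peak caller wrote it. The strongest of the 17 sites lay in an intron of GLIS3, a zinc finger transcription factor gene, 70760 bp from its nearest start. Its fold enrichment was 9.34, 6.20, 6.89 and 6.54 in CTRL A, B, C and D, with pileups of 19, 13, 13 and 13 fragments. The intergenic site 35561 bp upstream of KY had folds of 8.48, 7.09, 5.90 and 6.07 in the same order. The lowest CTRL library of the GLIS3 site was thus below the highest 2 of the KY site, so the spread between libraries was as large as the step between the sites.

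The next pair of sites varied more. The site 31711 bp upstream of ELMO2, an adaptor of RAC activation, had folds of 5.60, 7.86, 4.43 and 7.00 in CTRL A, B, C and D. The site nearest to RASL10A, a Ras-like GTPase gene, lay in an intron of AP1B1 and had folds of 6.47, 8.61, 5.98 and 3.32. CTRL B was highest at both, and the lowest library was C at the first and D at the second. In CTRL D the RASL10A site had a pileup of 10 fragments, against 31 in CTRL B.

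The site in an intron of ANKRD44 had folds of 7.47, 5.76, 5.41 and 5.60, and CTRL A stood above the other 3. The intergenic site 66031 bp upstream of PTPRD, a receptor tyrosine phosphatase gene, had folds of 6.07, 5.32, 3.94 and 7.00. Mean folds of the other 6 of the 12 strongest ran down to 4.20 ± 1.02 (SD, n = 4) at the CPN2 site. These were the sites nearest to ONECUT3 (in an exon), HS3ST1, CLIC1 (in an intron), SKIDA1, TAC1 and CPN2. At HS3ST1, a heparan sulfate sulfotransferase gene, the 4 folds lay between 4.43 and 5.60 with pileups of 9 to 11 fragments. No other library had a peak at any of them.

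**Figure D1:**
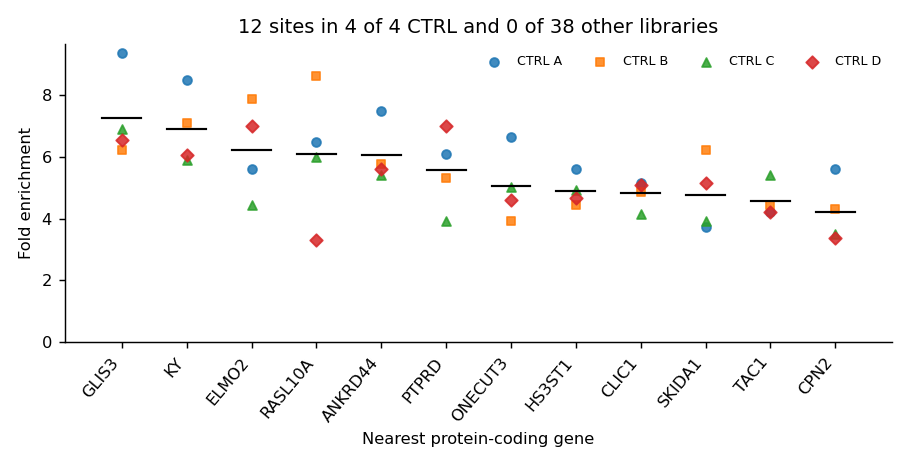
Fold enrichment (y axis, linear) at the 12 strongest sites with a peak in 4 of 4 CTRL and 0 of 38 other libraries, by nearest gene (x axis). Points are the 4 CTRL libraries and bars their means, which fall from 7.24 at GLIS3 to 4.20 at CPN2 with overlapping points between neighbours.

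Of the 17 sites, 2 were promoter-proximal, meaning that the centre summit lay within 1000 bp of a transcription start. The site 838 bp downstream of a start of MZT2A, a gene of the spindle organizing machinery with the near-identical copy MZT2B, had folds of 2.46, 3.22, 2.50 and 2.72. The site at SHARPIN, which encodes a subunit of a ubiquitin ligase complex, had folds of 2.02, 2.33, 2.35 and 2.18. Both lay close to a site seen in at least 20 of the other 38 libraries, at 145 and 316 bp from its edge. Their low folds came with pileups of 20 to 38 fragments, a range that overlaps the 10 to 31 fragments of the RASL10A site.

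Over the 1622 sites, 1309 had a peak in 3 CTRL libraries and 313 in 4. In the other 38 libraries, 170 sites had no peak, 540 had a peak in 1 library and 912 in 2. The sites formed the tail of a continuous range. Among the 79787 sites in at least 3 CTRL libraries, the number of sites rose with the number of other libraries from 170 at 0 to 1258 at 3, and lay between 2097 and 2995 from 7 to 34 other libraries. No separate group of sites stood out at 0.

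**Figure D2:**
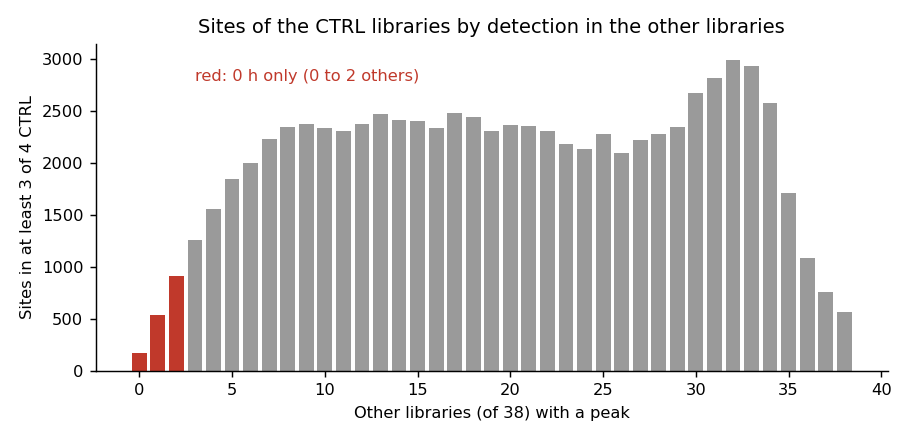
Number of sites with a peak in at least 3 of 4 CTRL libraries (y axis) by the number of the other 38 libraries with a peak there (x axis). Red bars are the sites kept here, 170, 540 and 912 at 0, 1 and 2 others, and they continue the rise of the grey bars without a gap.

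Just inside the limit, the 912 sites in 2 other libraries had a median fold enrichment of 5.43 and a median -log10 q of 6.85 (means over the CTRL libraries with a peak). Just outside it, the 1258 sites in 3 other libraries had 5.54 and 7.14. On the CTRL side, the 4269 sites in 2 CTRL and at most 2 other libraries had 4.90 and 5.46, and the 1309 in 3 CTRL libraries had 5.27 and 6.33. AP-1 motif shares were 36.6% and 38.3% just inside and outside the first limit, and 34.8% and 32.04% inside and outside the second.

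The same rule gave far fewer sites in the other 2 groups of 4 libraries, EGF at 24 h with 11 sites (0.00658% of all sites) and EGF at 48 h with 76 (0.0455%). Their peak numbers were also lower, 73618 ± 26038 and 81089 ± 5361, against 111974 ± 2185 in CTRL (SD, n = 4 each). Of the sites in at least 3 libraries of the group, the rule kept 2.03% in CTRL, 0.0230% in EGF at 24 h and 0.133% in EGF at 48 h. In groups of 3 libraries the rule asks for a peak in all 3. It gave 229 sites with IFNG + EGF at 24 h, 1.13% of the sites in all 3, at 49913 ± 24984 peaks (SD, n = 3). The other groups of 3 had 0 to 23 sites. In EGF at 48 h, 11 of the 76 sites held the AP-1 motif, and in EGF at 24 h 6 of 11 did. The rule was not alike for all groups. For each later group, the other libraries included the same treatment at the other time. For the EGF groups they also included the IFNG + EGF and TGFB + EGF libraries, which got EGF too. A site shared by libraries with EGF could thus pass the limit on other libraries and be dropped. CTRL was the only group taken at 0 h. The share of these counts that goes with peak number, or with which libraries counted as others, was not tested.

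Peaks at the sites were weak and narrow. The median fold enrichment was 5.28 in CTRL A, 5.26 in B, 5.22 in C and 5.14 in D. Over all sites of the same libraries the medians were 7.91 to 8.28. Median -log10 q was 6.33, 6.36, 5.76 and 6.34 in CTRL A to D, against 16.3 to 16.8 over all sites, and the highest single value was 32.3. Median peak width was 228, 208, 246 and 261 bp, against 366 to 411 bp over all sites. The caller's values fix the fragment pileup, and its median at the sites was 13, 13, 12 and 12 fragments in CTRL A to D over a median background of 1.03 to 1.29 fragments. At every 10th of the sites that 30 to 38 of the other libraries shared, the median pileup was 61 to 66 fragments over 4.11 to 4.56.

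The p-values of these peaks are set here beside the lowest values that other libraries listed. The lowest -log10 p in a file was 3.82 to 3.87 in CTRL and 3.87 to 5.43 in the other 38 libraries. It averaged 5.01 in the 8 libraries with under 30000 peaks and 3.90 in the 5 with over 100000. The median -log10 p of the sites in CTRL was 8.44 (lower quartile 6.62). Between 91.5% and 100% of the sites had a CTRL median past the lowest value of any given other library, with a median of 99.4%. The CTRL medians come from the peaks that chose the sites. They do not show what value the same sites would reach in another library, which was not tested. The low end of the local background, a low percentile over peaks of each library, was 1.14 ± 0.0914 fragments per base in CTRL (SD, n = 4). In the others it was 1.11 ± 0.137 (SD, n = 38).

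Detection elsewhere followed the libraries with many peaks. The CTRL libraries had a peak at 1273, 1310, 1345 and 1251 of the sites (A to D). TGFB + EGF 24 h A had the most of the others, 459, followed by EGF 24 h D with 264, OSM 24 h A with 257, PBS 24 h A with 225 and HGF 24 h A with 211. These 5 are the only other libraries with more than 100000 peaks, and they made 1416 of the 2364 detections (59.9%). All 5 were taken at 24 h, and all but EGF 24 h D are replicate A. Peak number, time and letter thus cannot be told apart in them. At the other end, 9 libraries had a peak at 0 sites, and they listed at most 39189 peaks. Without TGFB + EGF 24 h A the rule kept 2203 sites.

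**Figure D3:**
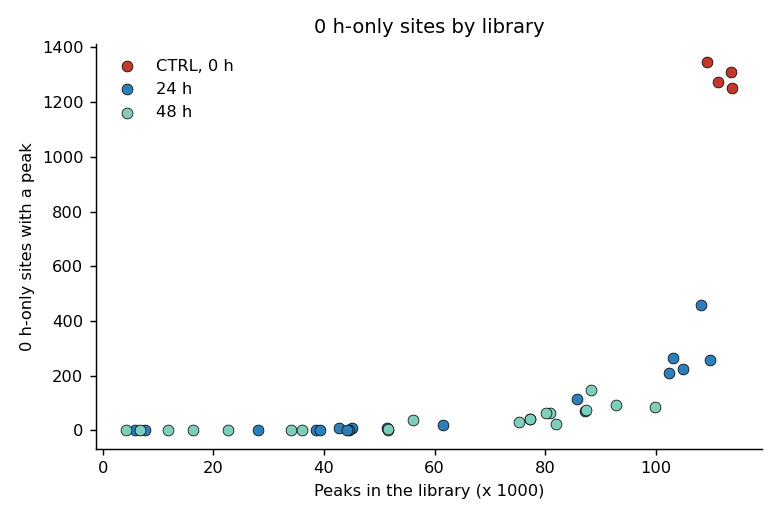
Number of the 1622 sites with a peak (y axis) against the library's peak number in units of 1000 (x axis), for 42 libraries. The 4 CTRL libraries, which chose the sites, lie between 1251 and 1345, and the other 38 lie between 0 and 459, rising with peak number.

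Where another library did have a peak, its median fold enrichment was 5.01 (quartiles 4.07 and 6.13), and the mean of CTRL at the same sites was 5.37 (4.62 and 6.44) over the 2364 detections. The other library was below the CTRL mean in 59.8% of them. Of the 912 sites in 2 other libraries, 532 (58.3%) were in 2 libraries of the same time, 186 in 2 of the same treatment, 332 in 2 of the same replicate letter and 299 in 2 of the 5 libraries with over 100000 peaks. Detections were unevenly spread, with 1698 of the 2364 (71.8%) at 24 h. All 5 libraries with over 100000 peaks were 24 h libraries, and 1416 of the detections were theirs. The median number of sites with a peak was 9 in the 24 h libraries and 23 in the 48 h libraries. The shares that this spread alone would give were not worked out, so these counts do not show that sites go together by time, treatment or letter. The most frequent pair, TGFB + EGF 24 h A with OSM 24 h A, shared 80 sites. The sites with the highest mean folds of all, 12.3 in an intron of TYW1 and 12.2 near OLFM3, were each also found in OSM 24 h A, with folds of 11.1 and 10.4 there. The TYW1 site was in TGFB + EGF 24 h A too, with a fold of 13.3, above its CTRL mean.

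To see how often such a site was found in a library that had no part in its choice, lists were drawn without 1 CTRL library and 1 other library, with a peak in all 3 remaining CTRL libraries and in at most 2 of the 37 remaining others. These lists held 590 to 960 sites. The left-out CTRL library had a peak at 47.5%, 50.5%, 53.5% and 46.2% of them (A to D, means over 38 lists). The left-out other library had one at 49.8% for TGFB + EGF 24 h A, 36.3% for EGF 24 h D, 35.02% for OSM 24 h A, 30.9% for PBS 24 h A and 30.1% for HGF 24 h A. In the 33 libraries with fewer peaks the share was 0% to 20.1%, with a median of 0.855%. TGFB + EGF 24 h A therefore lay within the range of the CTRL libraries, and the other 37 libraries lay below it. This order changed when libraries were limited to their 60000 strongest peaks and those with fewer were left out. Left-out CTRL libraries then averaged 42.1%, and the 18 other libraries with so many peaks ranged from 7.34% to 59.1%. The limit of at most 2 others then applied to fewer libraries, so the peak limit and the number of libraries changed together.

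Most of the sites were far from promoters. By the centre summit, 815 were intergenic (50.2%), 696 intronic (42.9%), 44 exonic (2.71%) and 67 promoter-proximal (4.13%). The promoter-proximal share was 4.31% in sites of 3 to 9 other libraries, 6.65% in 10 to 19, 15.3% in 20 to 29 and 40.0% in 30 to 38, and 9.44% over all merged sites. The median distance to a transcription start was 42284 bp, against 38811 bp over all sites. The median gap to a site seen in at least 20 other libraries was 19161 bp, and 64 sites lay within 1000 bp of one.

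The median GC content of the 201-base windows was 47.8%, against 46.3% over all sites and 56.2% in sites of 30 to 38 other libraries. The AP-1 motif was found in 576 of the 1622 windows, 35.5% (Wilson 95% interval 33.2 to 37.9, counting error only), and the same letters in reversed order in 4.69%. The share was 35.8% in sites of 3 to 9 other libraries, 34.1% in 10 to 19, 35.3% in 20 to 29 and 26.7% in 30 to 38. The AP-1 share of the 0 h sites was thus close to that of most other sites of the CTRL libraries.

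**Figure D4:**
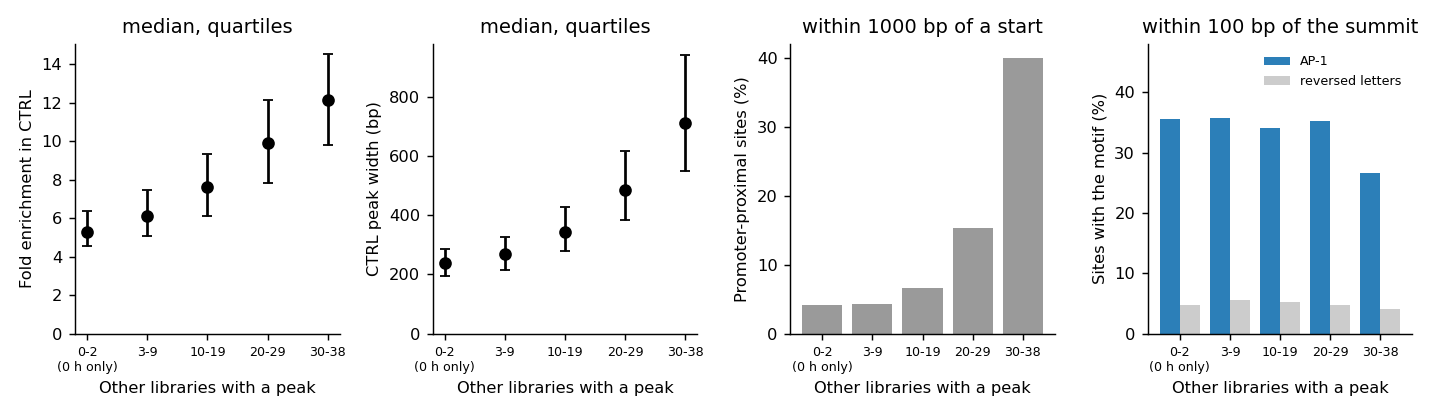
Sites in at least 3 CTRL libraries by the number of other libraries with a peak (x axes), with the 0 h-only sites at the left: median and quartiles of CTRL fold enrichment and of CTRL peak width in bp, and percent of sites that are promoter-proximal or hold the AP-1 motif (blue) or its reversed letters (grey). Fold, width and promoter share rise to the right, while the AP-1 share falls only in the last class, to 26.7%.

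Among other motifs, both strands searched, the TEAD motif GGAATGT was in 6.91% of the windows (5.20% over all sites) and the RUNX motif TGTGGTT in 7.83% (6.15%). CAGGTG, which ZEB and SNAI factors bind, was in 20.2% (16.3%), and its reversed letters in 6.10%. The SP and KLF motif GGGCGG, common in promoters, was in 7.64% (10.4%), and its reversed letters in 8.57%. A stretch reading GGGCGGG holds both, so the reversed letters are a poor comparison for this motif. CTCF, the insulator protein, had its motif in 1.54% (1.94%), and the p53 and p63 family in 1.05% (1.29%). The cAMP response motif TGACGTCA was in 5 windows, 0.308% (0.402%), and the GRHL motif AACCNGGTT in 0 (0.139%).

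The letters AGATAA, which zinc finger factors of the GATA family bind, were in 10.3% of the windows (8.74% over all sites). Their reversed letters were in 7.95%. The AP-2 motif GCCNNNGGC was in 8.94% (9.10%). TTGCNCAA, bound by CEBP factors, was in 3.51% (4.85%), and ACANNNTGT, bound by the glucocorticoid receptor, in 6.41% (7.88%), with reversed letters in 6.23%. TGTTTAC (FOX), CACGTG (E-box), GGGNNTTCC (NF-kappaB), TTCCNGGAA (STAT) and CCGGAAGT (ETS) were in 3.33%, 2.90%, 2.28%, 0.617% and 0.432%. Over all sites they were in 3.68%, 3.21%, 3.11%, 0.904% and 0.640%, in the same order. Their reversed letters were in 3.76%, 3.45%, 3.51%, 0.617% and 0.986% of the windows of the 0 h-only sites. No test was run on these shares.

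Sites of like strength in CTRL differed in these features. Among sites with a mean -log10 q of 5 to 10 in CTRL, 912 were 0 h-only sites and 13603 were not. The 0 h-only sites were promoter-proximal in 2.63% and held the AP-1 motif in 38.2%, against 9.15% and 27.2% in the others. The promoter-proximal shares were 8.72% against 11.05% at 2 to 5 and 1.73% against 9.62% at 10 to 15. At 10 to 15 the AP-1 shares were 43.3% of 231 and 32.03% of 13818, and at 2 to 5 they were 24.5% of 436 and 19.4% of 1955. Median CTRL peak width at 5 to 10 was 239 bp against 310 bp. The 0 h-only sites made up 18.2% of all sites at 2 to 5, 6.28% at 5 to 10, 1.64% at 10 to 15 and 0.352% at 15 to 20, and 5 sites at 20 or more. These shares are descriptions, since the strata rest on the CTRL values.

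The sites were spread over the genome. They fell in 1154 windows of 1 Mb, of which 812 held 1 site and none more than 5. By chromosome, they made up 1.40% (chromosome 14) to 2.65% (X) of the sites in at least 3 CTRL libraries. In all, 1431 protein-coding genes were the nearest gene of at least 1 site, and 26 of them of 3 or more. The number of all CTRL sites nearest to each gene is not given beside these counts. The counts therefore do not set a gene apart.

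HS3ST1 was nearest to 5 sites, all upstream of its start, between 7954 and 938628 bp away. The strongest of these had folds of 10.0, 8.42 and 10.4 in CTRL A, B and D, no peak in CTRL C, and a fold of 9.10 in PBS 24 h A. MAGI1, a scaffold of cell junctions, was nearest to 4 sites, 3 of them in its introns. All 4 had a peak in 4 of 4 CTRL libraries, with mean folds of 5.25 to 7.37, and each was also in 1 or 2 other libraries. Several genes tied at 3 sites, and the first in the alphabet were taken: ASAP1, BCL2L11, DUSP10 and EFR3A. BCL2L11 encodes the death-promoting protein BIM, and its strongest site, 367096 bp downstream, had folds of 6.60, 8.17 and 8.92 in CTRL A, B and C and 9.06 and 9.19 in TGFB + EGF 24 h A and OSM 24 h A. DUSP10, a phosphatase of stress-activated MAP kinases, had 3 upstream sites with mean folds of 3.01 to 5.13.

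Of 12 gene lists, the cAMP response had the most genes with a 0 h-only site within 50 kb of a start, 5 of 13 (PDE4D, PDE10A, NR4A2, CREM and CREB5). Over all 19609 protein-coding genes the share was 8.001%, and over the 162 genes of the lists it was 13.6%. These shares do not allow for how many CTRL sites lie near a gene. Of the pairs of a gene and a CTRL site within 50 kb, 0 h-only sites made up 5.05% in the cAMP list (5 of 99). In the other lists they made up 0% to 3.85%, and over all protein-coding genes 1.65%. The site 5047 bp upstream of a start of PDE4D, a cAMP phosphodiesterase, had a mean fold of 7.60 over 3 CTRL libraries, and the one 20704 bp downstream of a start of CREM, a cAMP-responsive transcription factor, had 6.09. The PDE10A site, 2507 bp downstream of a start, had 5.27 and was in 0 other libraries. Each gene had a single such site, so these values rest on 5 sites.

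The YAP and TEAD targets had 4 of 14 genes with a site, namely CCN1, AXL, TEAD4 and NUAK2. The one 35972 bp upstream of CCN1, a matrix protein gene, had a mean fold of 6.14, and that near AXL, a receptor tyrosine kinase gene, 5.28. The glucocorticoid response had 3 of 13. The NFKBIA site, 47541 bp downstream, had a mean fold of 7.01 and an AP-1 match, the ANGPTL4 site 2.88, and the promoter site of PER1, a clock gene, 2.55. Luminal genes had 2 of 13, and the site in an intron of ELF5, an alveolar transcription factor gene, had a mean fold of 8.68 over 4 CTRL libraries.

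The other lists described had few. The integrins and matrix had 2 of 15 genes with a site (ITGA3 and CD44) and the cell cycle 2 of 15 (CCNE1 and CDK4). There was 1 each in the immediate early and AP-1 genes (EGR3 of 14), the basal epithelium (ITGB4 of 13) and the immune markers (LYZ of 10). The EGF receptor ligands and feedback genes had 0 of 16 and the long neuronal genes 0 of 12. With 0 to 5 genes in a list, these shares say little about any 1 list.

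The later libraries differed in how many of their rare sites were 0 h sites. Rare sites are those that a library shared with at most 1 other library outside CTRL, and the 0 h share is the percent of them that at least 3 CTRL libraries also had. Its numerator is the number of 0 h-only sites with a peak in that library, which the rule used, so the shares are a description with no test. EGF had 0 h shares of 0.461%, 4.94%, 5.83% and 6.70% at 24 h and 3.71%, 3.82%, 4.18% and 6.65% at 48 h. In PBS the shares were 0.426%, 1.81% and 3.55% after 24 h, then 0%, 0.309% and 1.18% after 48 h. The ranges of EGF and PBS overlapped at 24 h and not at 48 h.

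With IFNG + EGF the share was 0.641% to 1.46% at 24 h and 0% to 1.28% at 48 h. With TGFB + EGF it was 0% in 4 of 6 libraries, which listed 4217 to 22651 peaks. The other 2, with 56140 and 108125 peaks, had 3.11% and 4.06%. HGF libraries lay between 0% and 6.34% and OSM libraries between 0% and 4.27%. The number of rare sites was 72 to 11292 in a library. Of the 8 libraries with under 30000 peaks, 7 had a share of 0% and 1 had 0.673%, and the 5 with over 100000 peaks had 3.55% to 6.34%. IFNG + EGF 48 h B, with 99869 peaks, had 1.28%. The part of peak number in the differences between treatments was not tested.

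**Figure D5:**
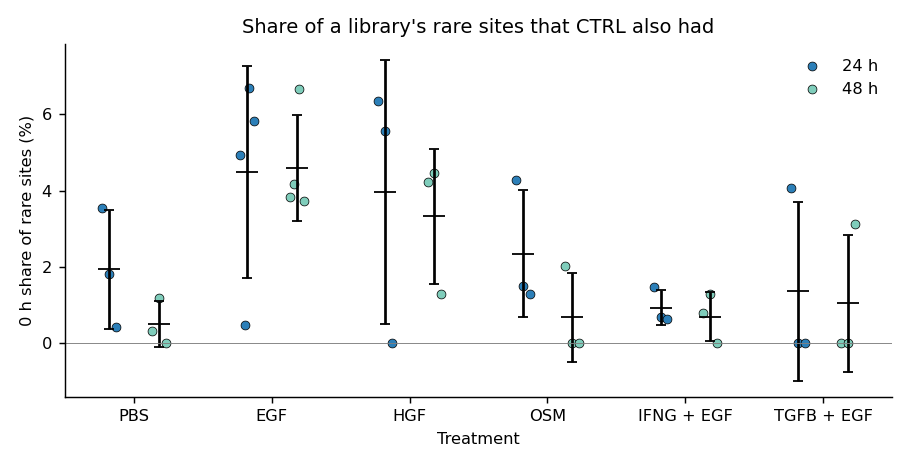
The 0 h share of rare sites in percent (y axis) for 38 libraries by treatment (x axis), 24 h in blue and 48 h in green, with short bars at the mean and lines of 1 SD to either side. EGF and HGF libraries reach 6.70% and 6.34%, and 10 of the 12 IFNG + EGF and TGFB + EGF libraries lie at or under 1.46%. The TGFB + EGF libraries at 0% list at most 22651 peaks.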

How the data were processed

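ATAC-seq peaks of 42 libraries were used. Per the study's methods and the submitters' processing notes, the authors trimmed reads with Trimmomatic 0.36.5, aligned them to hg38 with Bowtie2 2.3.4.1, dropped secondary, unmapped and mitochondrial alignments and PCR duplicates (Picard), and used MACS2 2.1.1.20160309.5 to list peaks separately for every library (q threshold 0.01, no input sample). Of the deposited values, the ratio gives a summit's fold enrichment, the -log10 columns its p and q, and the score a rescaled q. Remaining deposited columns hold bp positions. The files hold no read counts, so depth is unknown. No peak lay past the end of its chromosome in the reference.

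Peaks on chromosomes 1 to 22 and X were merged (1 bp), and 66628 peaks elsewhere were left out. Sites were placed against protein-coding genes of GENCODE release 44 by the centre summit. The strongest peak of a library in a site (highest -log10 q) gave its values. Pileup and background were solved from fold and p (tolerance 0.001, -log10 p up to 250, background at least 0.5). The merge and the recovery were tested on simulated data (Python 3.11.15, scipy 1.17.1). The sites, lists and motifs were chosen with earlier results of these data known. Named are the 12 strongest sites in 4 of 4 CTRL and 0 of 38 others, promoter sites among these, the 6 genes nearest to most sites, and up to 3 genes of a list, and the TYW1 and OLFM3 sites and the remaining genes of a list's count were named after their values were seen. The result of 1 gene list is not reported here. Replicate letters mark biological replicates of 1 collection. Planned permutation tests of the 0 h share of rare sites between treatments and times were run but are not reported, since the share counts the same peaks that chose the sites, and no p-value is given. The study set aside libraries with few reads in peaks, and here all 42 entered. Alternatives changed the q, peak number, merging, libraries and windows.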

Additional observations from a re-analysis of the deposited data

Results flagged for a closer look

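Of 36 quantities measured in 4 replicates, 3 had 1 library far from the other 3 by Dixon's criterion, which chance gives in about 1 of 20. The 0 h share of rare sites was 6.65% in EGF 48 h C and 3.71% to 4.18% in the other EGF 48 h libraries. The median -log10 q of the 0 h-only sites was 5.76 in CTRL C and 6.33 to 6.36 in the other CTRL libraries. The fold enrichment at the ANKRD44 site was 7.47 in CTRL A and 5.41 to 5.76 in the others.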

How the results depend on the processing

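The number of 0 h-only sites, 1622, became 17 with a peak in 4 of 4 CTRL and 0 of 38 others, 6289 with up to 5 others and 259 among the top 60000 peaks of the libraries that list so many. In these 3 settings the median fold was 4.75, 5.60 and 9.16, and in the first and last the promoter-proximal share was 11.8% and 0.772% and the AP-1 share 29.4% and 41.7%. At a -log10 q of at least 5 or 10, the median fold was 6.14 and 7.94 and the AP-1 share 38.1% and 40.6%. Cutting peaks to 100 bp on each side of the summit before merging gave a median fold of 5.14 and a promoter share of 6.59%. A 2500 bp promoter window gave a promoter share of 8.01%. Motif windows of 50 bp on each side of the summit gave an AP-1 share of 28.4%. Left-out CTRL libraries had a peak at 32.2% of sites in 0 of 37 others and at 42.1% among the top 60000 peaks, where other libraries averaged 23.2% (7.34% to 59.1%). Without CTRL A, B, C or D, with a peak in all 3 remaining CTRL libraries, the number of sites was 662, 624, 591 and 687, and without 1 other library up to 2203. Over all libraries left out singly, the promoter share was 2.87% to 4.91%, the AP-1 share 33.8% to 39.7% and the median fold 5.14 to 5.41. The causes were not tested beyond fewer sites or libraries entering.

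For the 0 h share of rare sites, a description, the difference was 3.33 points for EGF minus PBS, -3.73 for IFNG + EGF minus EGF and -3.34 for TGFB + EGF minus EGF. Leaving out libraries under 30000 peaks gave 3.24, -3.44 and -0.771, and sites per 1000 peaks gave 0.583, -0.695 and -0.180 on that scale. Without single libraries the differences were 2.95 to 4.44, -4.69 to -3.54 and -4.63 to -3.00, HGF minus PBS was 2.10 to 3.55 and OSM minus PBS -0.0775 (without PBS 24 h C) to 0.566. Between 48 h and 24 h it was -0.875 to -0.459. With the letter as a replicate block, the first 3 were 3.25, -3.65 and -3.26. Over sites, same-letter libraries deviated together at a correlation over 0.1 in 9 of 19 pairs of times and 10 of 30 pairs of treatments, so the letters did not meet the criterion for pairing, which asks this of every pair. In the share itself the same-letter correlation was 0.425 between times (19 pairs) and -0.268 to 0.860 between treatments (6 pairs each).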
